A study of Arabidopsis thaliana with 18 samples.

Results

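Dehydrins and cold-regulated COR genes were followed as a set of 10 Arabidopsis genes, taken by locus name from the 28642 loci of the deposited tables. The set held the dehydrins COR47 (AT1G20440), ERD10 (AT1G20450), ERD14 (AT1G76180), LTI30 (AT3G50970) and RAB18 (AT5G66400), the chloroplast proteins COR15A (AT2G42540) and COR15B (AT2G42530), the small hydrophilic proteins KIN1 (AT5G15960) and COR6.6 (AT5G15970, also called KIN2), and the membrane protein COR414-TM1 (AT1G29395, COR413IM1 in RefSeq). All 10 passed the filter on low counts, as did 16499 genes in all.

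RNA was sequenced from whole tissue of the first leaf pair of untreated Col-0 plants grown on agar medium under long days. The genotypes compared were wild type (WT) and the PID OE lines P10 (35S::PID10) and P21 (35S::PID21), which carry the cDNA of the protein kinase PINOID (PID) behind the CaMV 35S promoter, active in most cell types. Leaves were taken at 9 days after stratification (DAS), labelled proliferation, and at 16 DAS, labelled expansion. WT and P10 had 3 libraries at each day and P21 had 2 (replicates 2 and 3; replicate 1 was not analysed here), named biological replicates, with no statement on separate growth batches, so that p-values measure the spread between these libraries. No plant was exposed to cold, drought or abscisic acid (ABA).

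Dehydrins are hydrophilic, largely unfolded proteins that accumulate in drying seeds and in leaves under cold, drought or ABA, and protect membranes and enzymes from loss of water. The COR genes were named for their induction by cold: CBF transcription factors bind the C-repeat or dehydration-responsive element (CRT/DRE) in their promoters, and ABA-activated bZIP factors bind the ABA-responsive element (ABRE). In unstressed leaves many of these genes keep a low level of transcript that follows the circadian clock.

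The 16 libraries held between 1193042 and 4695692 uniquely matched reads. PID itself had a normalised read count (CPM, reads scaled to a common effective library size) of 3.19 to 5.92 in WT, 446 to 882 in P10 and 368 to 961 in P21, higher in both lines, as the labels give. Leaf photosynthesis markers were abundant in every library (34216 to 60943 CPM summed over 4 genes), whereas 7 seed and embryo markers summed to 0 to 1.64 CPM and 5 root markers to 0 to 7.45 CPM. Of the seed storage genes, CRU3, AT2S3 and OLEO2, and also EM6, had no read in any library. WT and P10 at 9 DAS carried another second index than the remaining libraries, so index and group cannot be told apart for P21 against WT or P10 at 9 DAS, for 16 against 9 DAS in WT and P10, and for any change of the P21 effect. Replicate 2 of WT and of P10 at 9 DAS stood apart in clock genes: GRP7, a clock-driven RNA-binding protein, had 1324 CPM there in WT against 134 and 27.9, and 1177 CPM in P10 against 34.9 and 109.6. The morning gene LHY had 3.95 CPM in that WT library against 67.1 and 344. Both genes were named after their values had been seen. Without those 2 libraries, 7 members were called higher at 16 than at 9 DAS in WT and 9 in P10, and COR6.6 was called higher in P21 than in WT at 9 DAS (log2 fold change 0.81, adjusted p = 0.034), an alternative chosen after seeing the data.

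The bases in front of the gene are shown for 6 members, because 3 pairs of them are compared below: the neighbours COR15A and COR15B, the neighbours KIN1 and COR6.6, and COR414-TM1 with COR47, which had the largest and the only negative log2 fold change in P10 at 16 DAS. Each window ran from 250 bases before to 50 bases after the start of the gene region and was read from RefSeq TAIR10.1 at the TAIR10 positions of the files. Capitals mark CCGAC (the core of the CRT/DRE), ACGTG (the core of the ABRE) and AAATATCT (the evening element), each on either strand, so that the palindrome CACGTG holds 2 overlapping ABRE cores. The windows lay at chr5:5209648-5209947, plus strand (KIN1), chr5:5211661-5211960, plus strand (COR6.6), chr2:17712281-17712580, minus strand (COR15A), chr2:17709896-17710195, minus strand (COR15B), chr1:10289572-10289871, minus strand (COR414-TM1) and chr1:7085723-7086022, minus strand (COR47), and are written 5′ to 3′ along the gene.
KIN1: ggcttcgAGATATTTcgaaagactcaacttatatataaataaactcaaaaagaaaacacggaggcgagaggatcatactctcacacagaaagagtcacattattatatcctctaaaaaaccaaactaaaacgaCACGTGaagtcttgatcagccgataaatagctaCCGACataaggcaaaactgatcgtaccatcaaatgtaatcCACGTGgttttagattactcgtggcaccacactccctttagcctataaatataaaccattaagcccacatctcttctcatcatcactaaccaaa
COR6.6: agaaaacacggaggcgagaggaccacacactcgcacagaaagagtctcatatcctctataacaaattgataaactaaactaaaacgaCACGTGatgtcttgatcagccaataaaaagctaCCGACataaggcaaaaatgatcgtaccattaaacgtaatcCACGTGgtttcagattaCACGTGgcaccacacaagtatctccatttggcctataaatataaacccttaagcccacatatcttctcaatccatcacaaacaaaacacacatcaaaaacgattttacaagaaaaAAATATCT
COR15A: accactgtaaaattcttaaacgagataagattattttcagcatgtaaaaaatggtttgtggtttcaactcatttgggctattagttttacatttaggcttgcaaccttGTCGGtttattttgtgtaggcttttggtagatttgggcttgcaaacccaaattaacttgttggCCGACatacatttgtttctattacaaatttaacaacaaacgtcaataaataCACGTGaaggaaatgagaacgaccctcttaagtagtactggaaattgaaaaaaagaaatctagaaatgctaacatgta
COR15B: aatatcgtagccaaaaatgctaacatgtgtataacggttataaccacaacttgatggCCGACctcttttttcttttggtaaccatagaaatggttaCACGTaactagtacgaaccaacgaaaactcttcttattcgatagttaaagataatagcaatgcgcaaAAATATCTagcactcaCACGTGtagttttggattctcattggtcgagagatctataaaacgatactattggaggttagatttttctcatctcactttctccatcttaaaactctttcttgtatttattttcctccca
COR414-TM1: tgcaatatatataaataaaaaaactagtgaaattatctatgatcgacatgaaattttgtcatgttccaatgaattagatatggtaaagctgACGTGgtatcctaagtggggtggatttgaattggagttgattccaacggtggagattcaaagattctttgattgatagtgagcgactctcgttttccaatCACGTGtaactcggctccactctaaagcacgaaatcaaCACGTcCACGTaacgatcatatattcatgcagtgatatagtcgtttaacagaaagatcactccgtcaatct
COR47: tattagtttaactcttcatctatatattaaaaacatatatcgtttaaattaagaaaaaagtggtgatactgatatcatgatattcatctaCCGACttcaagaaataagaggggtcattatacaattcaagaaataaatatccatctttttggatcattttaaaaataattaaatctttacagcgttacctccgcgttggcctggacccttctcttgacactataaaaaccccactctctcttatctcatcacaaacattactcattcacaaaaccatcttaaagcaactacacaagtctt

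The CRT/DRE core was found in the windows of 7 of the 10 genes, against 16.7% of 28008 windows of all genes. The ABRE core was found in 8 of 10, against 27.2% of all windows, and both cores in 6 of 10, against 5.14%. The evening element was present in COR15B, LTI30, KIN1 and COR6.6, against 5.2% of all windows. In COR6.6 it lay inside the gene region, 42 to 49 bases after its start, and in the others before the start. ERD10 had none of the 3 motifs, COR47 had a single CRT/DRE core, and COR414-TM1 had 5 ABRE core matches and no CRT/DRE core. KIN1 and COR6.6 shared the order CACGTG, CRT/DRE core, CACGTG at the same spacing: with the KIN1 window moved by 46 bases, 88 of the 96 bases from the first to the last ABRE core of COR6.6 were the same in both. Over all 254 bases that line up at this shift, compared without gaps, 156 were the same. COR6.6 had a further CACGTG that KIN1 lacked through the single difference A179T, counted from 1 at the 5′ end of the COR6.6 window, with the COR6.6 base first. A match is a run of letters, no binding was measured, and a motif outside the window was not looked for.

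**Figure D1:**
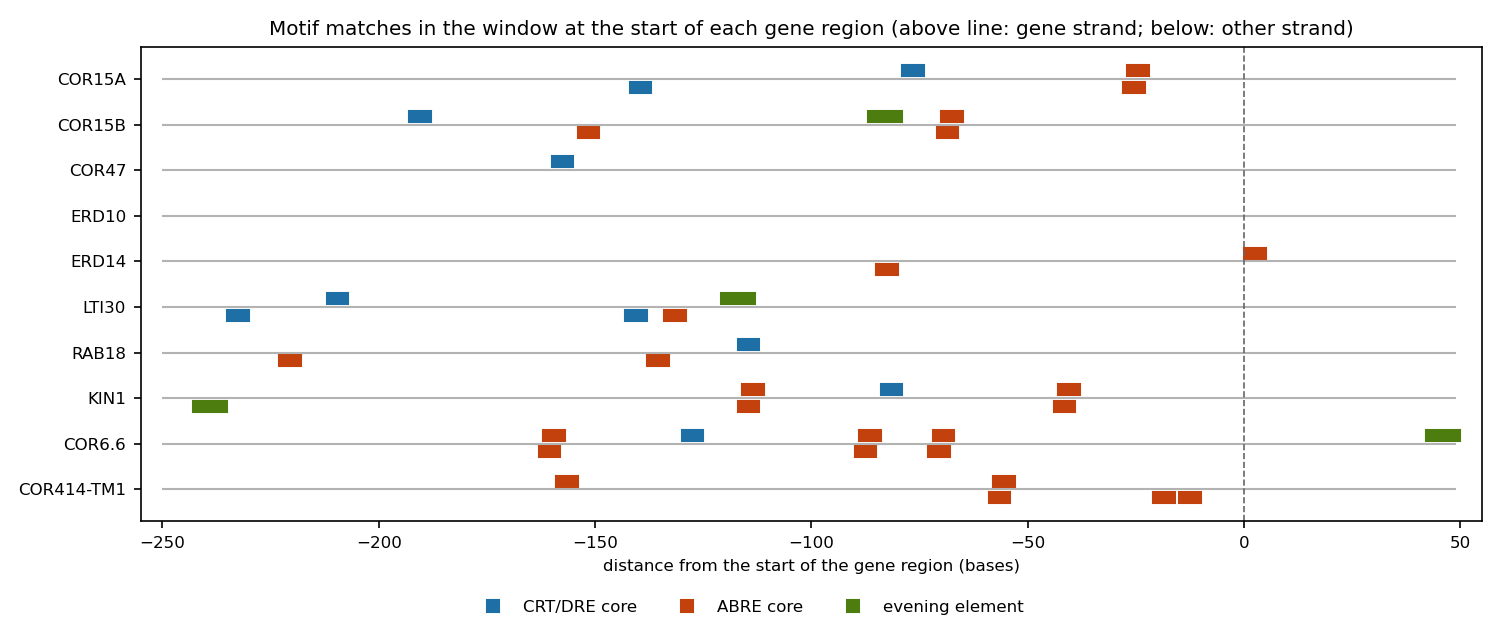
Positions of 3 motifs in the windows of the 10 genes, from 250 bases before to 50 bases after the start of the gene region (x axis, bases). Boxes above a line are on the strand of the gene, boxes below it on the other strand. KIN1 and COR6.6 share a run of matches displaced by 46 bases, and ERD10 has none.

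Levels in WT set the scale for the comparisons. At 16 DAS, on a per-length scale (RPKM, here the CPM of unique reads per kb of gene region), ERD14, an acidic dehydrin, was the most abundant member with 362 ± 84 (SD, n = 3). COR6.6 with 228 ± 41.6, COR15A with 201 ± 16.1, COR47 with 198 ± 50.6 and ERD10 with 166 ± 31.4 followed, and each of these neighbours in the order overlapped the next in single libraries. RAB18, the ABA-responsive dehydrin, had 38 ± 7.78 and COR15B had 20.6 ± 3.47, and both were separated from their neighbours. LTI30, a basic dehydrin, COR414-TM1 and KIN1 were the lowest with 4.1 ± 5.57, 3.62 ± 2.02 and 2.16 ± 0.322 and overlapped each other. KIN1 rested on 2 to 8 reads in each WT library at 16 DAS and on 2 or 3 reads at 9 DAS, and LTI30 on 2 to 11 reads over both days.

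The order of the members was partly different at 9 DAS in WT. COR6.6 (RPKM 81.9 ± 14.7) and ERD14 (75.1 ± 7.88) led and overlapped, COR47 had 43.5 ± 9.96, and COR15A (18.3 ± 10.3), COR15B (17.7 ± 21.8) and ERD10 (16.5 ± 5.78) could not be separated. COR15A thus overlapped its neighbour COR15B at 9 DAS, while it lay far above it in each library at 16 DAS.

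**Figure D2:**
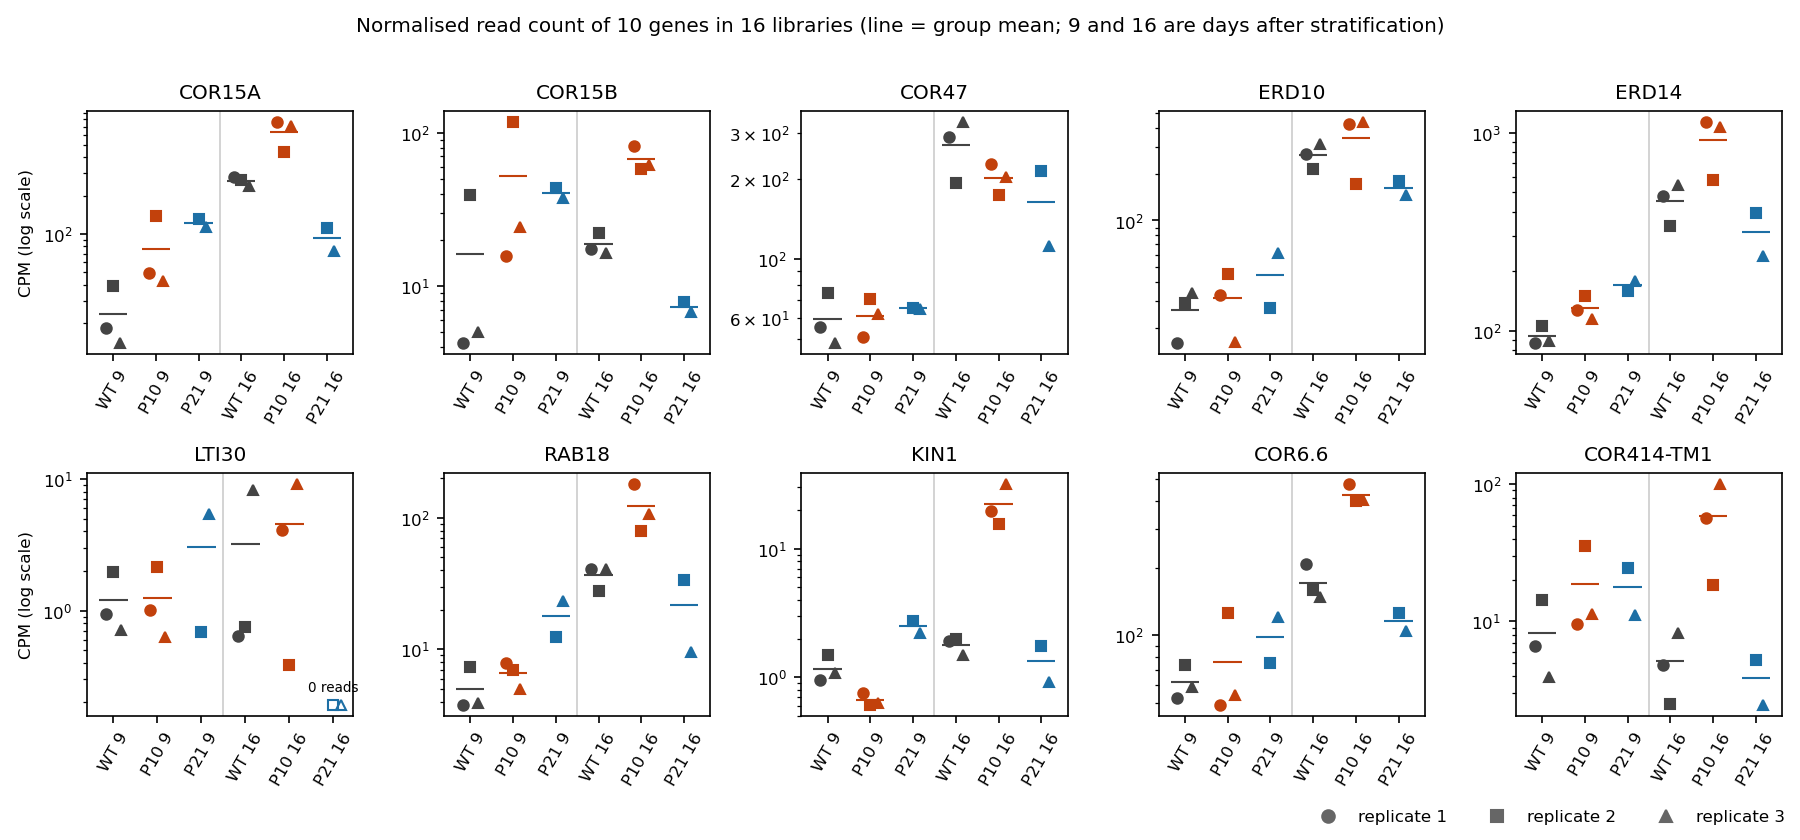
Normalised read count (CPM, log scale) of each gene in the 16 libraries by line and day, with a horizontal line at the group mean and open symbols where no read was counted. KIN1 lies between 15.7 and 31.7 CPM in P10 at 16 DAS and at or below 2.76 CPM in every other library.

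From 9 to 16 DAS in WT, 6 members rose, all of them dehydrins or abundant COR genes, and none fell. In all, 18.6% of the 16499 genes were called higher at 16 DAS and 17.3% lower (edgeR quasi-likelihood test, Benjamini-Hochberg adjusted p under 0.05 and log2 fold change beyond 0.75, the definition of a call throughout). ERD10 had 16.1, 29.1 and 34 CPM at 9 DAS and 268, 214 and 315 at 16 DAS, a rise of 3.31 ± 0.48 on the log2 scale (SE, adjusted p = 0.00016, edgeR). COR15A had 18.4, 39 and 14 CPM at 9 DAS and 279.6, 265 and 238 at 16 DAS (log2 fold change 3.48 ± 0.50, adjusted p = 0.00017). RAB18 had 3.78, 7.4 and 3.93 CPM at 9 DAS and 41.1, 28 and 41 at 16 DAS (2.86 ± 0.53, adjusted p = 0.00071). In each of these genes all WT libraries at 16 DAS lay above all WT libraries at 9 DAS, and ERD14 (2.27), COR47 (2.18) and COR6.6 (1.48) rose in the same way. The 6 genes and KIN1, 7 members in all, had groups that did not overlap, with 16 DAS higher, as had 27.8% of all genes tested. The log2 fold changes of KIN1 (0.67 ± 0.56), LTI30 (0.91 ± 1.26), COR15B (0.31 ± 0.92) and COR414-TM1 (−0.84 ± 1.00) did not pass. The median over the 10 members was 1.83, against −0.04 over all genes tested. Between the same days in WT, the 4 phloem markers summed to 69.1 to 101 CPM at 9 DAS and 766 to 795 at 16 DAS, the 5 guard cell markers to 91.7 to 106 and 168 to 230.1, and the 5 cell division markers to 165 to 212 and 16.9 to 25.1, none of them at 0 in any group; the part of tissue composition in the rise of the members was not tested. In whole leaves, a change in the share of a cell type and a change in RNA per cell cannot be told apart. Of 10 clock genes tested, 2 were called higher and 2 lower at 16 DAS in WT, with a median log2 fold change of −1.47. The part of clock state or time of harvest in the rise was not tested.

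P10 at 16 DAS differed most from WT. There, 5 of 10 members rose and none fell, while 8.10% of all genes tested were called higher and 7.69% lower. KIN1, a small protein induced by cold and ABA, had 19.7, 15.7 and 31.7 CPM in P10 and 1.91, 1.99 and 1.49 CPM in WT. All P10 libraries thus lay far above all WT libraries, an 11.8-fold difference (log2 fold change 3.56 ± 0.39, adjusted p = 3.2e-06, edgeR). Its neighbour COR6.6, of the same family, had 473, 400.1 and 403 CPM in P10 against 208, 159 and 149 in WT, without overlap and 2.46-fold higher (1.30 ± 0.30, adjusted p = 0.0072). COR414-TM1, a protein of the chloroplast membranes, had 56.6, 18.4 and 99.8 CPM in P10 against 4.78, 2.48 and 8.2 in WT. It rose by 3.70 ± 0.84 on the log2 scale (adjusted p = 0.0094), and its P10 libraries spread over a wide range without reaching WT.

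Among the dehydrins in P10 at 16 DAS, RAB18 and ERD14 rose and COR47, ERD10 and LTI30 did not pass the test. RAB18 had 179.8, 79.3 and 107 CPM in P10 against 41.1, 28 and 41 in WT (log2 fold change 1.73 ± 0.40, adjusted p = 0.0083). ERD14 had 1127, 575 and 1063 CPM against 479.5, 338 and 545 (1.02 ± 0.24, adjusted p = 0.0058). In both genes the P10 libraries lay above all WT libraries, and P10 replicate 2 was the lowest of the P10 libraries. COR47, also an acidic dehydrin, had 229, 175 and 203 CPM in P10 and 288, 193 and 328 in WT, which overlapped (−0.41 ± 0.23, adjusted p = 0.22). ERD10, the neighbour of COR47 on chromosome 1, had 420.3, 173 and 433 CPM against 268, 214 and 315 in WT (0.36 ± 0.42, adjusted p = 0.59). Here P10 replicate 2 lay below every WT library and the other two above every WT library. LTI30 had 4.1, 0.383 and 9.11 CPM in P10 and 0.638, 0.745 and 8.2 in WT, on 1 to 23 reads, and its groups overlapped.

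COR15A and COR15B encode proteins of the chloroplast stroma that stabilise membranes during freezing. COR15A had 757, 439.6 and 702 CPM in P10 at 16 DAS against 279.6, 265 and 238 in WT, without overlap (log2 fold change 1.27 ± 0.43, adjusted p = 0.057). COR15B had 82.1, 58.3 and 61.8 CPM against 17.5, 22.3 and 16.4, also without overlap (1.80 ± 0.83, adjusted p = 0.15). Neither was called in the fit over all 6 groups, where one spread per gene covers both days and both genes were widely spread at 9 DAS. Fitted on the 2 groups alone, both passed (adjusted p = 0.00021 for COR15A and 1.2e-05 for COR15B), and likewise in the fit over all groups once replicate 2 of WT and of P10 at 9 DAS was left out (8.3e-05 and 4.5e-06), an alternative chosen after seeing the data. In all, 7 members had P10 libraries above all WT libraries at 16 DAS, as had 19.4% of all genes tested. The median log2 fold change was 1.29 over the 10 members and 0.02 over all genes tested. Guard cell markers summed to 97.1 to 136 CPM in P10 and 168 to 230.1 in WT at 16 DAS, and photosynthesis markers to 40414 to 45079.6 and 52857 to 59429. Of 7 seed and embryo markers, 6 had no read in P10 at 16 DAS, and EM1 reached 1.64 CPM. The part of guard cells or photosynthetic tissue in these results was not tested.

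In P21 at 16 DAS all 10 log2 fold changes against WT were below 0, but no member was called, among 0.127% of all genes called in either direction. Without adjustment, p under 0.05 was reached by 3 members downward and 0 upward, beside 770 and 725 of all 16499 genes tested. The 3 members were COR15A, COR47 and LTI30, the last with 0 reads in P21. DESeq2 called 1 and limma 0. COR15A had 111 and 74.1 CPM in P21 against 279.6, 265 and 238 in WT, which did not overlap (log2 fold change −1.50 ± 0.51, adjusted p = 0.39, edgeR). COR47 had 215 and 112 CPM against 288, 193 and 328 (−0.72 ± 0.26, adjusted p = 0.39). COR6.6 had 126 and 105 CPM against 208, 159 and 149 (−0.59 ± 0.34, adjusted p = 0.67). COR15A and COR6.6 therefore lay below every WT library, whereas COR47 replicate 2 lay within them. KIN1 had 1.76 and 0.922 CPM against 1.49 to 1.99 in WT, on 3 and 4 reads. LTI30 had no read in either P21 library, which allows up to 1.32 and 0.922 CPM (3 reads per library), above the 0.638 and 0.745 CPM of WT replicates 1 and 2, so that no difference could be read. In 5 of 10 members P21 lay below all WT libraries, among them LTI30 at 0 reads, as had 13.4% of all genes tested. The median log2 fold change was −0.71 over the members and 0.00 over all genes. COR15A passed with DESeq2 (adjusted p = 0.05) and on the 2 groups alone (adjusted p = 0.0025), at the same log2 fold change of −1.50. Phloem markers summed to 445 and 569.6 CPM in P21 against 766 to 795 in WT at 16 DAS, without overlap, and 3 of the 4 were lower at p under 0.05 without adjustment, with SWEET11 called lower by DESeq2. Their part in these differences was not tested.

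The PID OE lines differed from each other in most members at 16 DAS. P10 was higher than P21 in 6 of 10, and lower in none, with 7.59% of all genes tested called higher and 7.32% lower. The differences were 4.09 ± 0.48 for KIN1 (adjusted p = 1.2e-05), 2.77 ± 0.54 for COR15A (0.0045) and 2.52 ± 0.49 for RAB18 (0.0032) on the log2 scale (SE, edgeR). COR6.6 (1.89 ± 0.35), ERD14 (1.54 ± 0.28) and COR414-TM1 (3.97 ± 0.99) were also called, the last with adjusted p = 0.017. For COR15B the difference of 3.19 ± 1.08 did not pass in the fit over all groups (adjusted p = 0.066), although its P10 libraries (58.3 to 82.1 CPM) lay far above those of P21 (7.9 and 6.76 CPM). It passed with DESeq2 (adjusted p = 0.0066), with limma (0.016), on the 2 groups alone (2.6e-05) and with the replicate block (0.0037). COR47 (0.31 ± 0.26) and ERD10 (1.06 ± 0.48) overlapped between the lines. In 8 of 10 members all P10 libraries lay above both P21 libraries, LTI30 among them, as had 23.9% of all genes. LTI30 had no read in P21, which allows up to 1.32 and 0.922 CPM. Both limits lie above the 0.383 CPM of P10 replicate 2, so that no difference could be read for LTI30. The call for COR414-TM1 was lost without P10 replicate 3 (adjusted p = 0.05), without P21 replicate 2 (0.072) or 3 (0.16) and on the 2 groups alone (0.07), that for RAB18 on the 2 groups alone (0.067), and that for COR15A without P21 replicate 3 (0.07). PID itself was at 748 to 882 CPM in P10 and 368 to 631 CPM in P21 on that day. Phloem markers summed to 683 to 818 CPM in P10 and 445 and 569.6 in P21, with SUC2 and SWEET12 called higher in P10. Photosynthesis markers summed to 40414 to 45079.6 CPM in P10 and 57581 and 60943 in P21, and guard cell markers to 97.1 to 136 and 172 and 182, with no marker of either list called by edgeR. The part of these tissues in the differences between the lines was not tested.

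**Figure D3:**
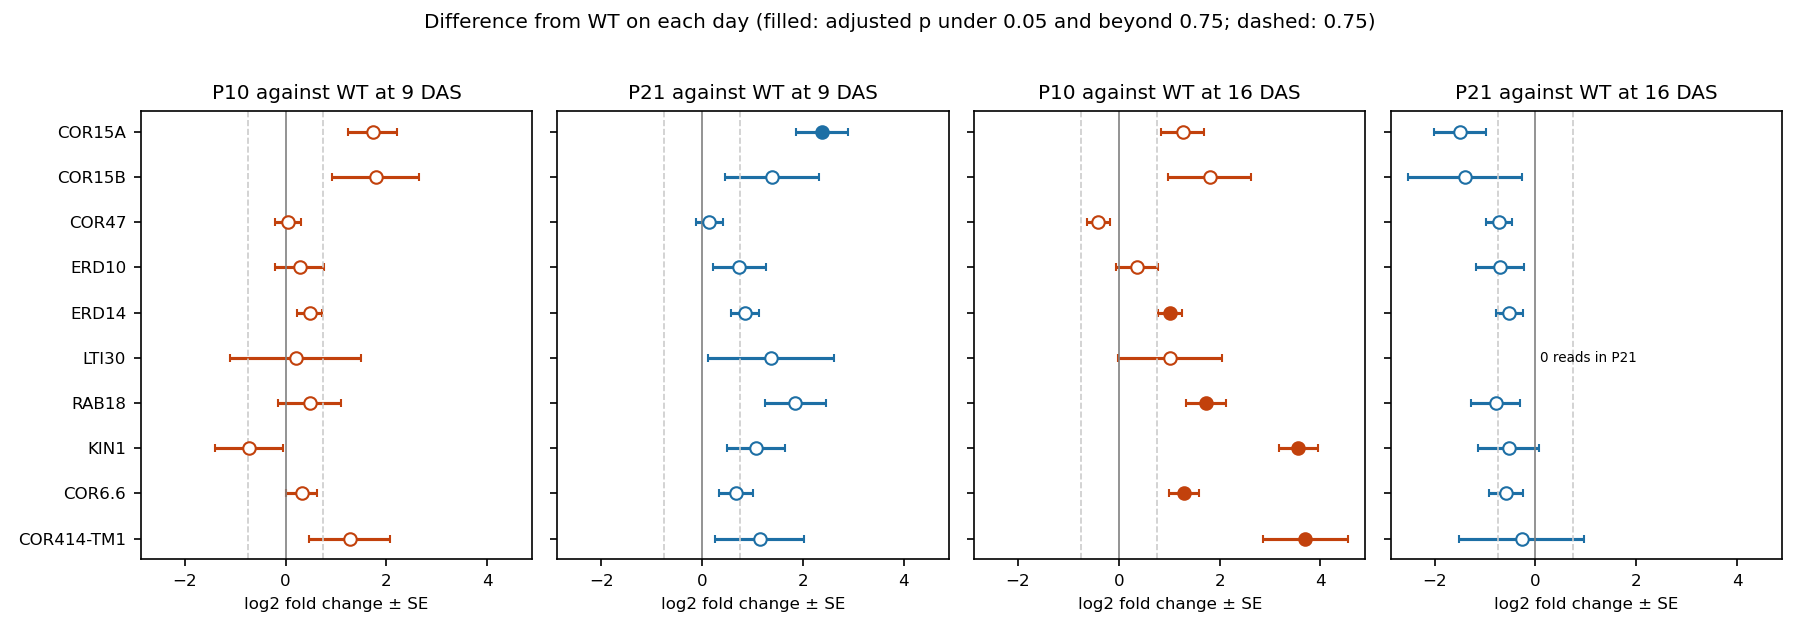
Log2 fold change against WT (x axis, ± SE from edgeR) of each gene in P10 and P21 at both days, with filled symbols for calls and dashed lines at 0.75. P10 at 16 DAS holds 5 calls, led by COR414-TM1 (3.70) and KIN1 (3.56), P21 at 9 DAS holds COR15A (2.38), and the remaining comparisons hold none.

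At 9 DAS in P21, COR15A was the 1 member called, with 2.61% of all genes tested called higher. It had 131 and 114 CPM against 18.4, 39 and 14 in WT, a 5.22-fold difference without overlap (log2 fold change 2.38 ± 0.52, adjusted p = 0.022, edgeR). RAB18 had 12.4 and 23.2 CPM against 3.78, 7.4 and 3.93 (1.85 ± 0.60, adjusted p = 0.089), and ERD14 had 160.2 and 180.0 CPM against 87.4, 106 and 89.8 (0.85 ± 0.27, adjusted p = 0.07). Both lay above every WT library without passing the test, as did KIN1 and COR6.6, so that 5 members did not overlap, as was the case for 19.0% of all genes tested in that direction. All 10 log2 fold changes were above 0, with a median of 1.11 against 0.02 over all genes. The call of COR15A was lost without either P21 library (adjusted p = 0.12 without replicate 2 and 0.094 without replicate 3) and without WT replicate 1 (0.074) or 3 (0.064). Cell division markers summed to 106 to 112 CPM in P21 and 165 to 212 in WT at 9 DAS, and phloem markers to 156 to 176 and 69.1 to 101, and their part in the COR15A difference was not tested.

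In P10 at 9 DAS no member was called, among 0.339% of all genes. Without adjustment, p under 0.05 was reached by 1 member upward, COR15A, which DESeq2 called too, and by 0 downward, and limma called 0. Over all 16499 genes tested it was reached by 1089 upward and 929 downward. COR15A had 49.4, 138 and 43.2 CPM in P10 against 18.4, 39 and 14 in WT (log2 fold change 1.73 ± 0.49, adjusted p = 0.17, edgeR), and all P10 libraries lay above WT. It passed with DESeq2 (adjusted p = 0.0029) and with both groups limited to replicates 1 and 3 (1.54, adjusted p = 0.023). Together with ERD14 (128, 151 and 115 CPM against 87.4, 106 and 89.8), 2 members had P10 above every WT library, as had 8.42% of all genes. KIN1 went the other way, with 0.759, 0.609 and 0.627 CPM against 0.945, 1.48 and 1.07, on 1 to 3 reads in each library, and its log2 fold change of −0.73 ± 0.67 did not pass. It was the 1 member below every WT library, against 8.72% of all genes. Between P10 and P21 at 9 DAS no member was called, among 0.0364% of all genes. There, 2 members were lower in P10 and 0 higher by p under 0.05 without adjustment, beside 524 and 668 of all 16499 genes tested. DESeq2 and limma each called 0 members. The 2 members were KIN1 (2.76 and 2.22 CPM in P21) and RAB18 (7.85, 7.01 and 5.01 CPM in P10).

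The effect of line was tested for a change between the days. In P10 the effect on KIN1 rose by 4.29 ± 0.82 on the log2 scale from 9 to 16 DAS (adjusted p = 0.0049, edgeR), the 1 member called, with 2.08% of all genes called higher. In P21 the effect on COR15A fell by 3.88 on the log2 scale (SE 0.74, adjusted p = 0.02), again the 1 member called, with 1.47% of all genes called lower. COR15A was thus above WT in P21 at 9 DAS and below it at 16 DAS in every library. All 10 members had a negative change of the P21 effect, with a median of −1.52 against −0.01 over all genes, while RAB18 (−2.64 ± 0.77, adjusted p = 0.094) and ERD14 (−1.37 ± 0.38, adjusted p = 0.062) did not pass. The 10 included LTI30, at 0 reads in both P21 libraries at 16 DAS, and COR414-TM1 with a wide error (−1.41 ± 1.53). The call for COR15A was lost without P21 replicate 2 at 9 DAS (adjusted p = 0.079), replicate 3 at 9 DAS (0.06) or replicate 3 at 16 DAS (0.14). Of the 4 phloem markers, SUC2, SWEET11 and SWEET12 had a change of the P21 effect that was called lower as well (median over the 4 of −1.64), as had KAT1 of the 5 guard cell markers, and their part was not tested. The change of the P10 effect on COR15B was 0.00 ± 1.42 and that on COR15A −0.46 ± 0.65, with wide errors.

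The rise with leaf age was also followed within each PID OE line. In P10, 7 members rose from 9 to 16 DAS and none fell, with 16.6% of all genes called higher and 14.4% lower: the 6 that rose in WT and KIN1, which went from 0.609 to 0.759 CPM up to 15.7 to 31.7 CPM, 31.1-fold higher (log2 fold change 4.96 ± 0.45, adjusted p = 3.6e-08, edgeR). RAB18 had 7.85, 7.01 and 5.01 CPM at 9 DAS in P10 and 179.8, 79.3 and 107 at 16 DAS, a 17.3-fold rise. In P21, 3 members rose, with 12.7% of all genes called higher, and all 3 were acidic dehydrins: COR47 (1.32 ± 0.29), ERD10 (1.87 ± 0.55) and ERD14 (0.89 ± 0.30). COR15A in P21 had 131 and 114 CPM at 9 DAS and 111 and 74.1 at 16 DAS (−0.41 ± 0.54, adjusted p = 0.62), where WT rose 11.1-fold. COR15B in P21 had 43.4 and 37.5 CPM at 9 DAS and 7.9 and 6.76 at 16 DAS, without overlap (−2.47 ± 1.14, adjusted p = 0.14). The calls in P21 rested on few libraries: that for ERD10 was lost without P21 replicate 2 at 9 DAS (adjusted p = 0.17) or replicate 2 (0.098) or 3 (0.063) at 16 DAS, and that for ERD14 without P21 replicate 2 (0.18) or 3 (0.089) at 9 DAS or replicate 2 at 16 DAS (0.3). That for COR47 was lost without replicate 2 at 16 DAS (0.058). With the replicate block, ERD10 (adjusted p = 0.19) and ERD14 (0.13) did not pass, and ERD14 did not pass with upper-quartile scaling (0.77, adjusted p = 0.057) or limma (0.47, adjusted p = 0.26). Lower levels at 16 DAS in P21 were called for COR15B and KIN1 by limma and for LTI30 by DESeq2. In this comparison limma had a median log2 change of −0.334 over all genes. KIN1 had 8 and 7 reads at 9 DAS and 4 and 3 at 16 DAS. LTI30 had 2 and 17 reads at 9 DAS and 0 at 16 DAS. Of 10 clock genes, 2 were called higher and 1 lower at 16 DAS in P10, and 1 higher and 0 lower in P21 (edgeR). Their part in these changes was not tested.

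COR15A and COR15B lie 1086 bases apart on chromosome 2 and differed in how they varied. The ratio of COR15A to COR15B, on the per-length scale, was 0.701 to 3.04 in the 8 libraries at 9 DAS and 5.29 to 11.2 in the 8 at 16 DAS. At 9 DAS the ratio was lowest in replicate 2 of WT (0.701) and of P10 (0.828). COR15B had 39 CPM in that WT library against 4.25 and 5.01 in the others, and 117 CPM in that P10 library against 15.7 and 24.4. These are the libraries with high GRP7 and low LHY, and no other group showed such a spread. COR414-TM1 moved with COR15B there, with 14.3 CPM in WT replicate 2 against 6.62 and 3.93, and 35.7 CPM in P10 replicate 2 against 9.62 and 11.3. COR15A was also highest there, with 39 CPM in WT against 18.4 and 14, and 138 in P10 against 49.4 and 43.2. So was COR6.6, with 74 CPM in WT against 52.4 and 59, and 126 in P10 against 48.9 and 53.9. COR47 was highest there too, with 74.5 CPM in WT against 55.3 and 48.3, and 70.7 in P10 against 50.9 and 62. ERD10 was highest there in P10 only, with 45.1 CPM against 32.7 and 16.3. In WT, ERD10 had 29.1 CPM in replicate 2 against 16.1 and 34. With all libraries, the COR15B difference from WT at 9 DAS did not pass in P10 (log2 fold change 1.79 ± 0.86, adjusted p = 0.44) or P21 (1.39 ± 0.93, adjusted p = 0.44), and leaving out 1 library gave 0.30 to 3.49 and 0.91 to 3.07. With both groups limited to replicates 1 and 3, COR15B was called in P10 at 9 DAS (log2 fold change 2.03, adjusted p = 0.0099) and in P21 at 9 DAS (3.10, adjusted p = 6e-06). The part of the clock or of time of harvest in these values was not tested.

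KIN1 and COR6.6 lie 1183 bases apart on chromosome 5. COR6.6 had 55 to 228 times the per-length level of KIN1 in WT and P10 at 9 DAS, 30.1 and 59.7 times in P21 at 9 DAS, and 88.2 to 119 times in WT at 16 DAS. In P10 at 16 DAS the ratio was 14 to 28, below that in every other library, with KIN1 at 18.9 to 38.2 and COR6.6 at 529.9 to 626 RPKM. The 2 genes share sequence, yet 2 of the KIN1 reads and 99 of the COR6.6 reads over all libraries matched more than 1 place, beside 197 and 6475 unique reads, and none of the remaining 8 members had such a read. A share of reads assigned to the wrong copy cannot be read from the tables.

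**Figure D4:**
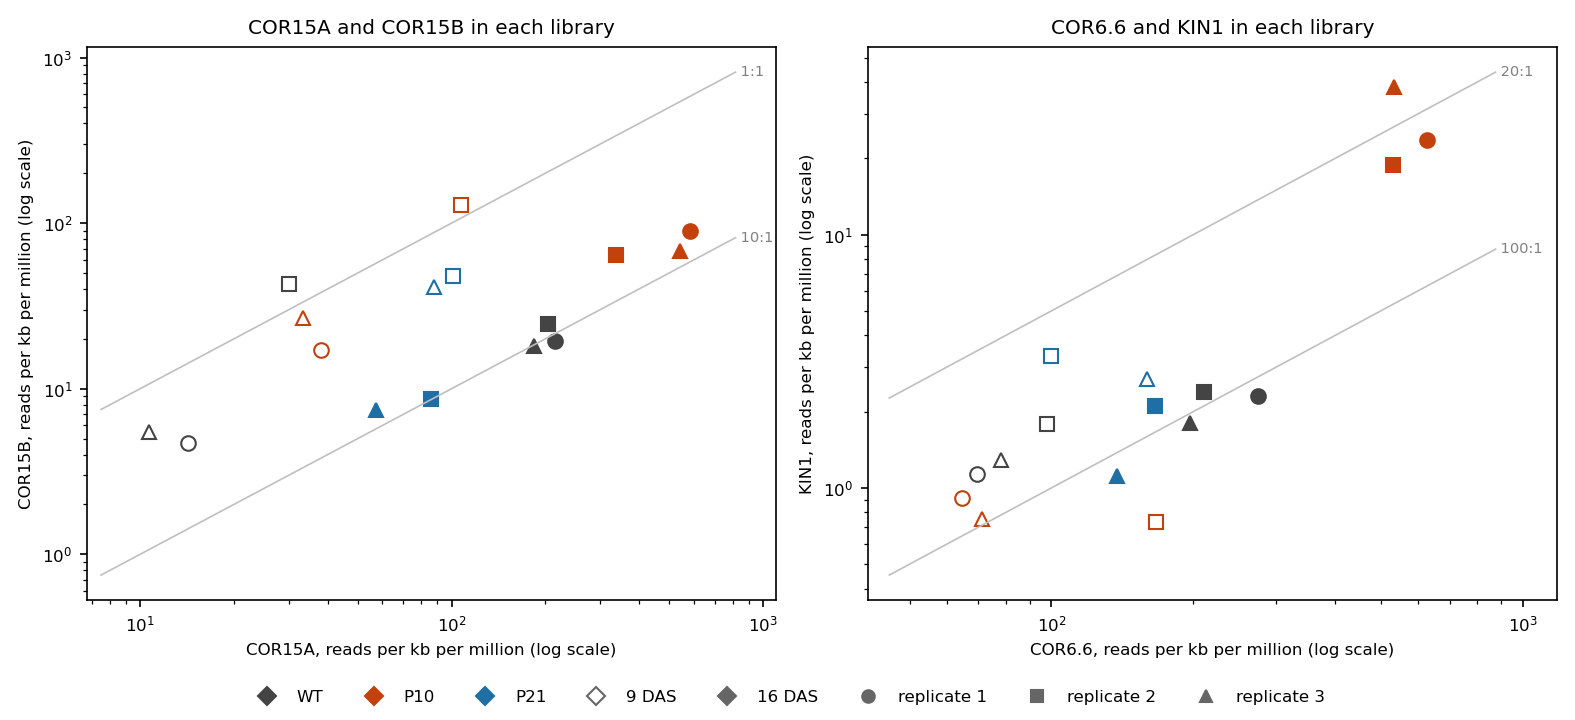
Levels of the neighbours COR15A and COR15B (left) and COR6.6 and KIN1 (right) in each library, in RPKM from unique reads on log scales, with open symbols for 9 DAS and filled symbols for 16 DAS. Grey lines mark fixed ratios. At 9 DAS replicate 2 of WT and P10 have more COR15B than COR15A, and P10 at 16 DAS is set apart by KIN1.

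COR47 and ERD10, 2230 bases apart on chromosome 1, showed a ratio on the same scale of 1.23 to 4.48 at 9 DAS and of 0.551 to 1.41 at 16 DAS. The lowest ratios, 0.641 and 0.551, belonged to P10 replicates 1 and 3 at 16 DAS. P10 replicate 2 had 1.19, within the range of WT (1.06 to 1.26).

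Patterns over the 16 libraries were compared by Pearson correlation of log2 CPM, as a description, since libraries of a group share line, day and index. ERD14 and RAB18 were most alike (r = 0.97), followed by ERD10 and ERD14 (0.95) and by RAB18 and COR6.6 (0.94). COR414-TM1 was most like COR15B (0.80), which also encodes a chloroplast protein, and least like COR47 (0.06). COR15B correlated with COR15A at 0.65. Among genes outside the set, the 3 most like KIN1 were HSFA6A (r = 0.971), a heat shock factor, AT5G15500 (0.965) and AT5G24735 (0.965). The 3 most like COR47 were NCED4 (0.969), RLP19 (0.969) and AT5G57040 (0.963), and those most like COR15A were UBC8 (0.963), LTI78 (0.951), which is the cold-induced gene RD29A, and ABCC14 (0.946).

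Upstream regulators of cold-induced transcription were read from a fixed list of 22 genes, of which 15 passed the filter. The CBF genes were hardly measured: CBF1, CBF2, CBF3 and CBF4 averaged 0.132, 1.59, 0.939 and 0.547 CPM in P10 at 16 DAS and 0, 0.626, 0 and 0 in WT, and none passed the filter. In P10 at 16 DAS, 1 regulator of the 15 rose and 1 fell, beside 8.10% and 7.69% of all genes tested. HSFC1, a heat shock factor induced by cold, had 25.4, 12.3 and 17.8 CPM against 6.06, 9.68 and 6.71 in WT (log2 fold change 1.23 ± 0.39, adjusted p = 0.029). RAV1, an AP2/B3 factor, had 6.57, 6.9 and 7.92 CPM against 53.2, 52.9 and 102 (−3.22 ± 0.62, adjusted p = 0.0038). No regulator was called in P21 at either day or in P10 at 9 DAS (edgeR). Without adjustment, p under 0.05 was reached by 1 regulator with a higher level and 0 with a lower in P21 at 16 DAS, by 2 and 0 in P21 at 9 DAS, and by 1 and 0 in P10 at 9 DAS. Over all 16499 genes tested, these counts were 725 higher and 770 lower, 1763 and 1791, and 1089 and 929, in the same order. DESeq2 and limma called 0 regulators in each of these 3 comparisons.

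Of 5 further dehydrins, 4 were near 0 and HIRD11 was abundant. XERO1, AT2G21490, AT4G38410 and AT4G39130 stayed between 0 and 0.627 CPM in every library. HIRD11, a histidine-rich dehydrin named after its values had been seen, had 563, 499 and 706 CPM in P10, 423 and 477 in P21 and 743, 816 and 788 in WT at 16 DAS. It rose from 9 to 16 DAS in WT (1.42 ± 0.36, adjusted p = 0.0064, edgeR, and by DESeq2 and limma). At 16 DAS it was lower than WT in every library of both lines, but neither difference passed (log2 fold change −0.41 ± 0.35 with adjusted p = 0.46, and −0.80 ± 0.40 with adjusted p = 0.61).

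Of 23 other cold-regulated genes, 21 were tested, and 7 rose and 2 fell in P10 at 16 DAS, beside 8.10% and 7.69% of all genes tested. RD29B, an ABA-responsive gene, had 112, 43.3 and 86 CPM in P10 against 0.319, 0 and 0.745 in WT, on 113 to 217 reads against 0 or 1. LEA7 had 29.6, 12.3 and 12.7 CPM against 0, 0 and 0.745, and LEA4-5 had 102, 37.6 and 81.2 against 6.06, 1.49 and 2.24 (adjusted p = 1.3e-05, 0.037 and 4.8e-05). P5CS1, which makes the osmolyte proline, had 4229, 2734 and 4105 CPM against 705, 517 and 585 (log2 fold change 2.61 ± 0.50, adjusted p = 0.0041). RD29B, LEA7, LEA4-5 and P5CS1 thus lay above WT in every P10 library, as did KIN1 and RAB18, while LEA14 of the same list was not called. GOLS2, COR413-PM1 and ERD7 also rose, and SAG21 and CSP1 fell, named here to complete the counts. RD29A, which shares the list, had 292, 125 and 277 CPM against 192, 129.6 and 234 and did not pass (0.32 ± 0.35, adjusted p = 0.56). In P21 at 9 DAS, LEA14 rose and CSP2 fell, beside 431 genes called higher and 458 lower of all 16499 tested. In P21 at 16 DAS none was called by edgeR or limma and RD29A fell by DESeq2. Without adjustment (p under 0.05), 4 genes had a lower level and 0 a higher, beside 770 and 725 of all 16499 genes tested. The median log2 fold change of the list was −0.40. In P10 at 9 DAS none was called by edgeR or limma and LEA14 rose by DESeq2. Without adjustment, p under 0.05 was reached by 3 genes upward and 2 downward, beside 1089 and 929 of all 16499 genes tested.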

How the data were processed

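Reads of stranded mRNA libraries had been matched by the authors to TAIR10 with CLC Genomics Workbench at default settings. The authors deposited, per locus and library, unique gene read counts, total gene read counts, RPKM (total reads per kb of gene region, scaled to library size and recomputed here with a maximal relative deviation of 3.6e-15) and other columns scaled to a common library size. Reads were counted over whole gene regions, and the strand setting is not given in the sources used here. Of 16 columns used, 15 are named for lane 1 and 1 for lane 2, although lanes were said to be combined. The authors' own test columns (fold changes and p-values) and 384 further per-sample columns were not used.

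Unique read counts (1193042 to 4695692 per library, median 2631344) of 16499 loci kept by filterByExpr were normalised by TMM and fitted over all 6 groups with edgeR 4.0.16 in R 4.3.3 (quasi-likelihood, 10 residual degrees of freedom, Benjamini-Hochberg adjustment over all loci tested, 11 comparisons). A call needed adjusted p under 0.05 and log2 fold change beyond 0.75, thresholds taken from the study. CPM used the TMM factors (0.842 to 1.14), and correlations used log2 CPM with a prior count of 1. The script was tested on simulated data. Alternatives used DESeq2 1.42.0, limma 3.58.1 on log2(RPKM + 1), other scalings, total reads, no filter, a replicate block and libraries left out. Replicate numbers were not shown to pair the libraries: of 14 same-numbered pairs within a day, 4 had correlated deviations above 0.1 (range −0.234 to 0.444). All 4 were at 9 DAS, among them the pairs of replicate 2 (WT and P10 0.444, WT and P21 0.194, P10 and P21 0.201). The deviations of 2 P21 libraries mirror each other, so that the check cannot settle pairing at 9 DAS.

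Members and gene lists were chosen with earlier results of these data known. All 10 members were named, then up to 4 genes per fixed list with the largest log2 fold change in P10 against WT at 16 DAS among those called in either line, and the 3 genes most like KIN1, COR47 and COR15A. Counting intervals and zero-read limits (3 reads) cover counting error only. Windows were read from RefSeq TAIR10.1. Of all loci, 98.6% lay inside the RefSeq region of the same name, and 50.2% shared a start or an end with it. The start of a gene region, from which a window was placed, can thus differ from that in RefSeq.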

Additional observations from a re-analysis of the deposited data

Results flagged for a closer look

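The effect of line differed between the days in 2 members by a test of the difference itself (an interaction term in the edgeR fit). For KIN1 the P10 effect was 4.29 higher on the log2 scale at 16 than at 9 DAS (SE 0.82, adjusted p = 0.0049): every P10 library lay below every WT library at 9 DAS, on 1 to 3 reads each, and above every WT library at 16 DAS. For COR15A the P21 effect was −3.88 on the log2 scale (SE 0.74, adjusted p = 0.02): both P21 libraries lay above WT at 9 DAS and below WT at 16 DAS. Groups of 2 or 3 libraries are too small to test for outlying samples.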

How the results depend on the processing

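The values of 68 member differences were recomputed under 26 alternatives, 16 of which left out 1 library and 1 of which, added once the data had been seen, dropped replicate 2 of both WT and P10 at 9 DAS. Where P21 was thereby reduced to 1 library at a day, its spread was taken from the other groups. Of 30 calls, 22 were kept under every alternative and none changed sign.

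The number of members called stayed within 1.5 times its main value under all alternatives for P10 against WT (5 to 7) and against P21 (4 to 8) at 16 DAS and for 16 against 9 DAS in WT (6 to 7) and P10 (7 to 9). Elsewhere it moved. DESeq2 called 1 in P10 against WT at 9 DAS, 1 in P21 against WT at 16 DAS, 2 in P21 against WT at 9 DAS and 3 for the change of the P21 effect. With only the groups compared, 2 were called in P21 against WT at 16 DAS, 3 in P21 against WT at 9 DAS, 3 for the change of the P21 effect and 5 for 16 against 9 DAS in P21. Without replicate 2 of both groups at 9 DAS, these were 1 in P10 against P21 and 2 in P10 against WT at 9 DAS, 2 in P21 against WT at 16 DAS, 3 in P21 against WT at 9 DAS, and 2 and 3 for the change of the P10 and P21 effects. With the replicate block, which the data do not show to pair libraries, 1 was called for 16 against 9 DAS in P21, against 3 without it, and 7 in P10 against WT at 16 DAS. Leaving out 1 library gave 0 to 3 in P21 against WT at 9 DAS, 0 to 4 for 16 against 9 DAS in P21, 1 to 2 and 0 to 4 for the change of the P10 and P21 effects, and 0 each time in P10 against WT or P21 at 9 DAS and in P21 against WT at 16 DAS. The cause of these moves was not tested.

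Signs reversed in differences that were not called. Leaving out 1 library gave, for P10 against WT at 9 DAS, COR47 −0.10 to 0.23, COR6.6 −0.29 to 0.56, ERD10 −0.07 to 0.54 and LTI30 −0.39 to 0.67, and for P21 against WT at 9 DAS, ERD10 −0.01 to 1.18 and LTI30 −0.74 to 2.13. At 16 DAS it gave COR414-TM1 −0.84 to 0.24 in P21 against WT, COR47 −0.11 to 0.84 in P10 against P21, and LTI30 −0.38 to 2.61 in P10 against WT. Without replicate 2 of both groups at 9 DAS, COR6.6 was −0.13 in P10 against WT.

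Over all genes, the median change lay between −0.04 and 0.02 in each comparison of the fit used, but as low as −0.21 (16 against 9 DAS in WT) with upper-quartile scaling and −0.334 (the same days in P21) with limma on log2(RPKM + 1), where it reached 0.203 in P10 against P21 at 16 DAS. Counts of genes called ranged from 22 to 111 for P10 against WT at 9 DAS (main 56) and from 13 to 92 for P21 against WT at 16 DAS (main 21), libraries left out apart. Leaving out 1 library gave 16 to 71 and 1 to 51 in these, 267 to 965 for P21 against WT at 9 DAS (main 889, lowest without P21 replicate 2) and 51 to 579 for the change of the P21 effect (main 524, lowest without P21 replicate 3 at 16 DAS). KIN1 and LTI30 rest on few reads, so that small differences in them were not detectable at this depth.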

Other observations

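The 7 genes whose P10 libraries lay above all WT libraries at 16 DAS (KIN1, COR6.6, COR15A, COR15B, RAB18, ERD14 and COR414-TM1) each had at least 1 ABRE core in the window shown, a match found in 27.2% of all windows, and 5 of them had a CRT/DRE core as well. COR47 and ERD10, which overlapped between the groups, were the 2 members without an ABRE core. LTI30, with 3 CRT/DRE cores and 1 ABRE core, overlapped too, on 1 to 23 reads in each library. The grouping was made after the values had been seen, and with 10 genes it is a description of letters in a window, with no test.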
